A study of Mus musculus with 2 samples.

Results

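The enzymes described here turn arachidonic acid into eicosanoids, the short-lived lipid mediators of inflammation. The 10 genes were chosen by name: Ptgs1, Ptgs2, Ptges, Ptgis and Hpgds for the prostanoid branch, and Alox5, Alox5ap, Lta4h, Ltc4s and Alox15 for the lipoxygenase branch. Of these 10, 9 had a probe set with a single gene symbol in the platform annotation, out of 18193 genes so named, and they were read by 14 probe sets, the groups of short probes with which an Affymetrix array measures a transcript. No probe set carried Ptgs1 as its single symbol, so Ptgs1 is not analysed here.

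RNA came from peritoneal macrophages of male C57BL/6 mice, collected 48 h after transfection. One culture had received Control siRNA (1 array) and the other HDAC9 siRNA (1 array). Both groups thus shared strain, sex, cell type, transfection and time, and differed in the siRNA. The sources used here do not give the siRNA sequence, the way the macrophages were obtained or any pooling of mice. With 1 array per group there was no replicate, and no p-value or standard deviation between samples could be computed, so each difference below is between 2 arrays and not between conditions.

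Eicosanoid synthesis starts when a phospholipase frees arachidonic acid from membranes. Cyclooxygenases (Ptgs1, constitutive in most tissues, and Ptgs2, inducible by inflammatory signals) convert it to prostaglandin H2, which terminal synthases turn into prostaglandin E2 (Ptges), prostacyclin (Ptgis) or prostaglandin D2 (Hpgds). In the other branch, 5-lipoxygenase (Alox5), helped by its membrane partner FLAP (Alox5ap), makes leukotriene A4, which Lta4h hydrolyses to leukotriene B4 and Ltc4s conjugates with glutathione to leukotriene C4. Alox15 oxygenates arachidonic acid at carbons further along the chain and is a familiar gene of resident peritoneal macrophages.

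The 2 members whose brightest probe sets differed most between the arrays, 1 in each direction, were Ptgs2 and Ltc4s, and the 250 bases before their RefSeq start sites are shown for that reason. RefSeq promoter entries were found for 7 of the 10 genes, in build GRCm38.p6. The Ptgs2 window is chr1:150099781-150100030 on the plus strand and the Ltc4s window chr11:50238533-50238782 on the minus strand. Both are written 5′ to 3′ along the gene, and capitals mark matches to the motifs searched.
Ptgs2: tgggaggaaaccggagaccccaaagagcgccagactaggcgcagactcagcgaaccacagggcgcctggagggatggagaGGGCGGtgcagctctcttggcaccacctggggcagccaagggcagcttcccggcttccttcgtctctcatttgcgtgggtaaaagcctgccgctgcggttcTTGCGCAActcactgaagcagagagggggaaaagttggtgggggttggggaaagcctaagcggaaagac
Ltc4s: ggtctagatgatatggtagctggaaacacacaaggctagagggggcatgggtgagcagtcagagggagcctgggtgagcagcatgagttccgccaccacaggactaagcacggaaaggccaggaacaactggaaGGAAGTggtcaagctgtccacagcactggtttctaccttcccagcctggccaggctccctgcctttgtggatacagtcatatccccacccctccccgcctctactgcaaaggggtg

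The Ptgs2 window held 1 Sp1 GC box (GGGCGG), starting 170 bases before the start site, and 1 C/EBP motif (TTGCNNAA), starting 69 bases before it. These motifs occur in 32.7% and 9.56% of the 32851 RefSeq windows of the same length. The Ltc4s window held 1 PU.1 core (GGAAGT), starting 116 bases before the start site, a motif present in 19.7% of all windows. The other motifs searched had no match in these letters: a TATA box (TATAAA, gene strand only), AP-1 (TGANTCA), the cAMP response element (TGACGTCA), the E-box (CACGTG), an interferon response element, NF-kappaB and MEF2, all except the TATA box on both strands. The matches did not overlap, and they describe letters, not bound sites. The arrays carried no measurement of factor binding.

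The target of the siRNA was near background. Hdac9 gave a log2 signal of 6.88 with control siRNA and 5.69 with HDAC9 siRNA by its brighter probe set, and 5.99 and 5.94 by the other. Background was set at log2 6.34, the 95th percentile over 80 olfactory and vomeronasal receptor probe sets, which read genes of sensory neurons. Of all probe sets, 51.4% were above it with control siRNA and 53.6% with HDAC9 siRNA. Signals under it were raised to it before a ratio was taken. Ratios are HDAC9 siRNA over control siRNA on the log2 scale throughout, and the 12090 genes above background on at least 1 array had a median ratio of 0.03.

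Of the 9 measured members, 8 were above background on both arrays and 1, Alox15, was below it on both. None of the 8 was 2-fold higher (1.44% of all genes above background were) and none 2-fold lower (0.372% were), against 1.81% of genes in either direction. Beyond the scatter of 0.29 log2 units between probe sets of the same gene were 2 members, Ptgs2 (higher) and Ltc4s (lower), compared with 34.3% of all genes (22.2% higher and 12.1% lower). The other 6 members lay within that scatter. It is a single value pooled over all signal levels above background, and it does not measure variation between cultures or between arrays.

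**Figure D1:**
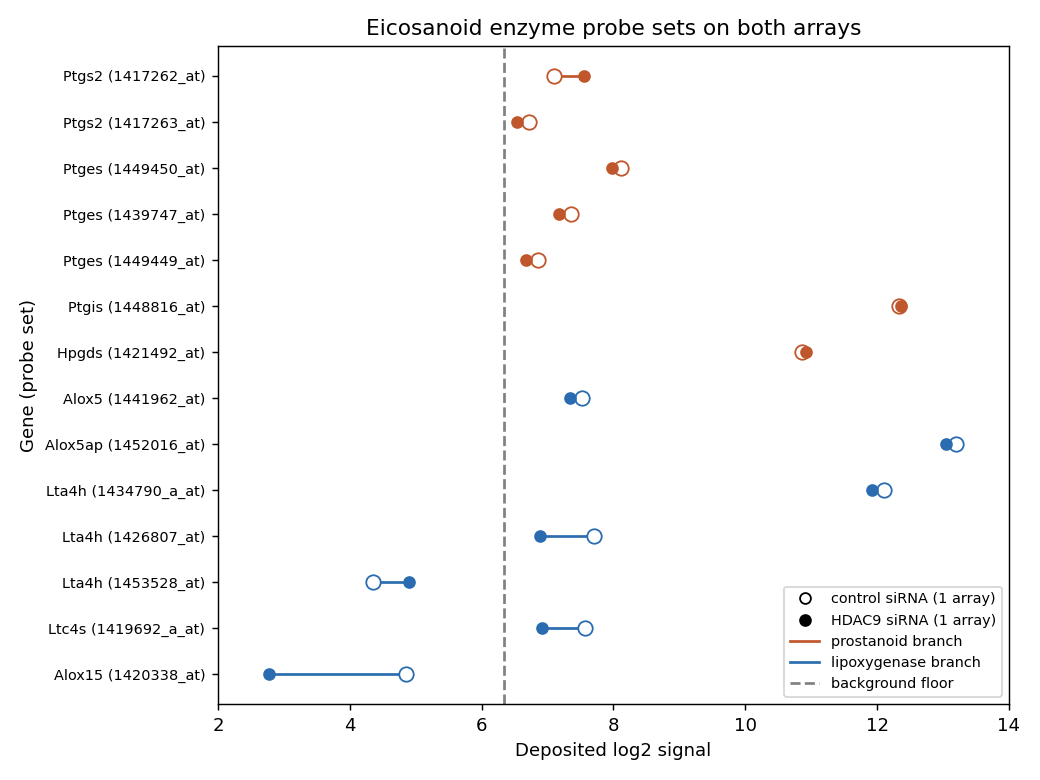
Deposited log2 signal (horizontal axis) of the 14 probe sets of 9 eicosanoid enzyme genes (vertical axis) with control siRNA (open circle) and HDAC9 siRNA (filled circle), 1 array each; the dashed line is the background floor at 6.34. Both Alox15 points and both points of Lta4h probe set 1453528_at lie left of the floor. Above it, the filled point is to the left in all 5 lipoxygenase-branch pairs and in 4 of the 7 prostanoid-branch pairs.

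In the prostanoid branch, the first enzyme was dim. Ptgs2 by probe set 1417262_at had a log2 signal of 7.11 with control siRNA and 7.56 with HDAC9 siRNA, a 1.37-fold higher value (log2 ratio 0.45). A ratio as high or higher was found for 12.5% of all genes above background. Its second probe set, 1417263_at, went the other way, from 6.72 to 6.54 (log2 ratio -0.18). The 2 probe sets of Ptgs2 differed by 0.63 in their log2 ratios, a gap reached by 12.1% of the 5671 genes with more than 1 probe set above background. The direction of Ptgs2 therefore depended on the probe set, and the median of the pair was 0.14.

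The terminal synthases differed little between the arrays. Ptges, the inducible microsomal prostaglandin E synthase, had log2 signals of 8.12 and 7.98 by its brightest probe set, 7.36 and 7.17 by the second and 6.85 and 6.67 by the third (control array given first). All 3 were lower with HDAC9 siRNA, with log2 ratios of -0.13, -0.19 and -0.18, each inside the scatter. Ptgis, the prostacyclin synthase, was far above background at 12.34 and 12.36, with a log2 ratio of 0.02. Hpgds, the hematopoietic prostaglandin D synthase, stood at 10.86 and 10.93, with a log2 ratio of 0.07. An absolute ratio at least as large was found for 94.3% of all genes above background in the case of Ptgis and 79.4% in the case of Hpgds.

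In the lipoxygenase branch, all 4 genes above background were lower with HDAC9 siRNA, but 3 of the 4 lay within the scatter of 0.29. Over all genes above background, 54.1% had a ratio above 0. Alox5, the 5-lipoxygenase, went from 7.53 to 7.35 (log2 ratio -0.18). Alox5ap, its activating protein, was far above background, at 13.19 with control siRNA and 13.04 with HDAC9 siRNA (log2 ratio -0.15). Ratios as low or lower than these belonged to 21.5% of all genes for Alox5 and 24.7% for Alox5ap.

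Lta4h, the leukotriene A4 hydrolase, was read by 3 probe sets that did not give the same size of difference. The brightest, 1434790_a_at, had log2 signals of 12.11 with control siRNA and 11.92 with HDAC9 siRNA (log2 ratio -0.19). Probe set 1426807_at went from 7.70 to 6.89, a 1.76-fold lower value (log2 ratio -0.82). Only 1.20% of all probe sets above background were as low or lower than that. The third, 1453528_at, was below background on both arrays (4.36 and 4.90). The 2 probe sets above background had the same direction but differed by 0.63 in log2 ratio, as much as those of 12.5% of genes. The brighter of the 2 carries the _a_at suffix, which marks probes shared by several transcripts of a gene.

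Ltc4s, the leukotriene C4 synthase, had the largest difference of the members by brightest probe set. Its only probe set, 1419692_a_at, had a log2 signal of 7.56 with control siRNA and 6.92 with HDAC9 siRNA, a 1.57-fold lower value (log2 ratio -0.65). Ratios as low or lower were found for 2.08% of all genes above background. By brightest probe set it was the only member past 1.5-fold, a threshold that 2.79% of all genes passed in the lower direction. Its signal with HDAC9 siRNA was 0.58 log2 units above the floor, and there was no second probe set to set beside it.

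Alox15 was below background on both arrays, at log2 4.85 with control siRNA and 2.78 with HDAC9 siRNA, so it has no ratio. Among the 12990 named probe sets below background on both arrays, 24.4% differed between the arrays by at least as much as the deposited values of Alox15 did, and the median absolute difference was 0.97, compared with 0.20 for probe sets above background on both.

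**Figure D2:**
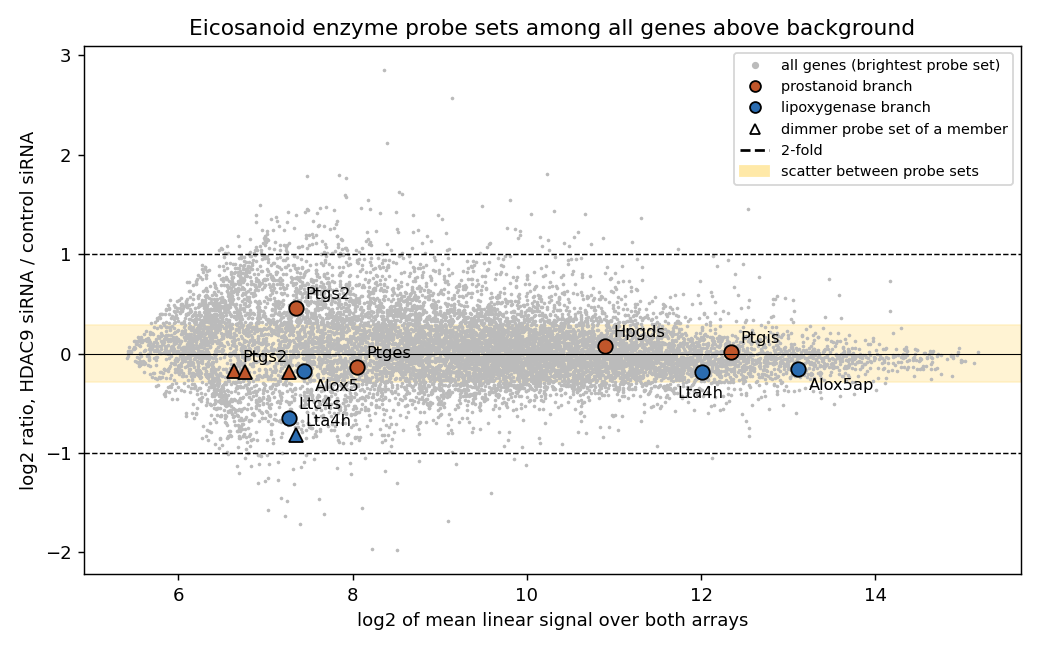
HDAC9 siRNA over control siRNA as a log2 ratio (vertical axis) against the log2 of the mean linear signal over both arrays (horizontal axis) for all 12090 genes above background (grey) and the members' 12 probe sets above background (coloured by branch; circles, brightest probe set; triangles, dimmer ones). No member reaches the dashed 2-fold lines, and Ptgs2, Ltc4s and the dimmer Lta4h probe set lie outside the shaded scatter of 0.29.

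Side by side, the branches overlapped in signal and were close in ratio. By brightest probe set with control siRNA, the prostanoid genes above background ranged from 7.11 to 12.34 and the lipoxygenase genes from 7.53 to 13.19. Signals of different probe sets depend on their probes as well as on transcript amount, so these ranges do not rank the genes by abundance. Each branch held genes well above the floor (Ptgis and Hpgds; Alox5ap and Lta4h) and genes within about 2 log2 units of it (Ptgs2 and Ptges; Alox5 and Ltc4s).

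The median log2 ratio was 0.05 over 4 prostanoid genes and -0.18 over 4 lipoxygenase genes. Of the prostanoid genes, 3 had a ratio above 0, and of the lipoxygenase genes 0 did, in a background where 54.1% of genes were above 0. In the related lists described below, 6 of 7 other prostanoid genes were below 0. So were 3 of 6 other lipoxygenase and leukotriene genes. Counted over all probe sets above background, the branch medians were closer, -0.13 for 7 prostanoid and -0.19 for 5 lipoxygenase probe sets. Ptges alone gave 3 of those 7. With each gene taken at the median of its probe sets, the branch medians were further apart, 0.05 and -0.34. The prostanoid median turned to -0.02 when the arrays were centred on their medians, where the median over all genes was -0.03. The lipoxygenase median stayed negative under every scaling tried. With 4 genes in each branch and 1 array per group, the difference between the branches was not tested.

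The cells carried macrophage transcripts, and most genes listed for large peritoneal macrophages, the main resident population of the cavity, were above background. All 9 macrophage core genes measured were above background on both arrays, led by Lyz2, Tyrobp, Cd68 and Itgb2. So were 11 of 14 genes of large peritoneal macrophages, and Ltbp1 was above it with HDAC9 siRNA only. Over all genes, 10732 of 18193 were above background on both arrays. Of the 11, the nearest to the floor were Icam2 (6.97 and 7.37), Selp (7.26 and 7.63), Prg4 (7.33 and 6.70), Cd5l (7.41 and 7.91) and Vsig4 (7.70 and 7.62). Gata6, a factor listed here for large peritoneal macrophages, had log2 signals of 10.74 with control siRNA and 11.20 with HDAC9 siRNA. The list had a median log2 ratio of 0.00 and 0 genes past 2-fold; Prg4 was at -0.62, Cd5l at 0.50, Gata6 at 0.46 and Icam2 at 0.40. Timd4, a receptor of resident macrophages named after its value was seen, was below background on both arrays (5.61 and 2.91), as Alox15 was. Garnl3, of the same list as Timd4, was also below it on both. Among the mesothelial markers described below, Wt1 (log2 ratio 0.44) and Lrrn4 (0.56) were higher, as Gata6 was. Of those 9 markers, 6 had a ratio below 0. Which cells gave the Gata6 signal was not tested. Of 9 measured genes of small peritoneal macrophages and monocytes, 5 were above background on both arrays: Mrc1 (12.51 and 12.49), Plac8 (11.65 and 11.89), F13a1 (10.34 and 9.40), Fcrls (8.41 and 7.57) and Vcan (6.82 and 8.10). Their log2 ratios were -0.02, 0.24, -0.94, -0.84 and 1.28, so Vcan was past 2-fold. Ccr2 (5.76 and 5.07), Irf4 (6.01 and 5.87) and Cd226 (0.41 and 0) were below background on both arrays. Retnla (5.70 and 6.60) was above it with HDAC9 siRNA only.

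Several members are also expressed by other cells of the cavity. In bulk RNA, fewer cells of a type and less RNA per cell cannot be told apart. Hpgds and Ltc4s are genes of mast cells, and Ltc4s also of eosinophils. Of 10 mast cell markers, 1 was above background with control siRNA and 2 with HDAC9 siRNA. They were Gata2 (7.57 and 8.23) and, near the floor, Tpsab1 (6.26 and 6.50). The summed linear signal of the 10 was 468 and 514, and Cpa3, Kit, Cma1 and Fcer1a were below background on both arrays. The higher sum follows Gata2 (log2 ratio 0.65), the brightest of the 10, and most of the others were below background on both arrays. Of 5 eosinophil markers measured, Siglecf was above background and lower with HDAC9 siRNA (9.21 and 8.13, log2 ratio -1.08), while Prg2, Epx, Ccr3 and Il5ra were below it on both. The summed linear signal of the 5, 674 and 347, is mostly that of Siglecf. Siglecf was lower in the same direction as Ltc4s, and its part in the Ltc4s difference was not tested. Of 8 neutrophil markers measured, 3 were above background on both arrays, led by S100a8 (9.13 and 8.91). Of 7 platelet markers 5 were, led by Pf4 (10.17 and 9.79). Of 9 T cell markers measured 4 were, led by Il7r (13.79 and 13.84), while Cd3d, Cd3e, Cd3g and Cd4 were below background on both. Of the 5 T cell markers above background on at least 1 array, 4 had a ratio below 0 (median -0.72). Of 6 B cell markers measured, 1 was above background on both arrays, Cd22 (10.87 and 11.10), and Cd79a, Cd79b and Ms4a1 were below it on both. How much these cells added to the members' signal was not tested.

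Ptgis is expressed by stromal and vascular cells as well. Of 10 fibroblast and smooth muscle markers, 9 were above background on both arrays, led in signal by Col1a2 (13.94 and 14.37) and Dcn (13.70 and 13.83). Of these 9, 7 had a ratio above 0 (median 0.34), Col1a1 (1.80) and Col3a1 (1.46) were past 2-fold, and Pdgfra (-0.10) and Pdgfrb (-0.18) were lower. The summed linear signal was 47592 with control siRNA and 62881 with HDAC9 siRNA. All 9 mesothelial markers were above background, led by Upk3b (12.46 and 12.70) and Upk1b (11.97 and 11.95), with summed signals of 13296 and 14590. The sum follows its brightest genes: 6 of the 9 had a ratio below 0 (median -0.17), among them Msln (-1.11), Krt7 (-0.99) and Krt18 (-0.44). Of 7 endothelial markers 2, Kdr and Eng, were above background, with sums of 592 and 693. Ptgis itself was at 0.02; how much of the Ptgis signal belonged to each cell type was not tested.

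The rest of the pathway was read from 6 lists, which together held 68 measured genes, 55 of them above background on at least 1 array. Past 2-fold were 3 genes, 2 higher and 1 lower (5.45% of the 55, beside 1.81% of all genes), and the median log2 ratio was -0.07. These 3 were Dagla, Mboat2 and Cbr2. Of the 55, 34 had a ratio below 0.

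Arachidonate release was summarised by 14 genes above background, of which 1 was 2-fold higher and 0 lower (median -0.08, or 0.05 without probe sets of the _s_at, _x_at and _a_at types). Dagla, a diacylglycerol lipase that makes the arachidonate-bearing lipid 2-arachidonoylglycerol, went from 7.44 to 8.85, a 2.66-fold higher value (log2 ratio 1.41). Mgll, the lipase that splits that lipid and so frees arachidonic acid, was at -0.62, and its 3 probe sets above background spanned -0.62 to -0.52. The related Daglb, named after its value was seen, was at -0.26. Among the phospholipases, Pla2g2d was at -0.46 and Pla2g12a at -0.38, and Plcg2, a phospholipase C of immune receptors, at 0.36. Pla2g4a, the cytosolic phospholipase that supplies both branches, also named after its value was seen, had log2 signals of 11.13 and 11.03 (log2 ratio -0.11).

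Reacylation, the return of arachidonic acid to membranes, had 10 genes above background with 1 past 2-fold and a median of -0.06. Mboat2, a lysophospholipid acyltransferase, went from 6.59 to 8.04, a 2.73-fold higher value (log2 ratio 1.45) on a probe set whose control signal was close to the floor. Lpcat3, the acyltransferase that loads arachidonate into phospholipids, was at 0.40. Acsl3 was at -0.38 by its brighter probe set and -0.14 by the other, and Lpcat4 was at -0.27. Lpcat2 was at -0.34 by its brighter probe set and 0.25 by the other.

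Among 7 other prostanoid synthesis genes above background, 1 was 2-fold lower and 0 higher, and 6 had a ratio below 0 (median -0.15). Cbr2, a carbonyl reductase, went from 8.68 to 7.13, a 2.94-fold lower value (log2 ratio -1.56). Its relative Cbr1, which reduces prostaglandin E2, was at -0.15. The thromboxane synthase gene Tbxas1 had log2 signals of 10.57 and 10.42 (log2 ratio -0.15), Prxl2b, a prostaglandin F synthase, was at -0.31, and Ptges2, the second microsomal prostaglandin E synthase, at 0.18.

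**Figure D3:**
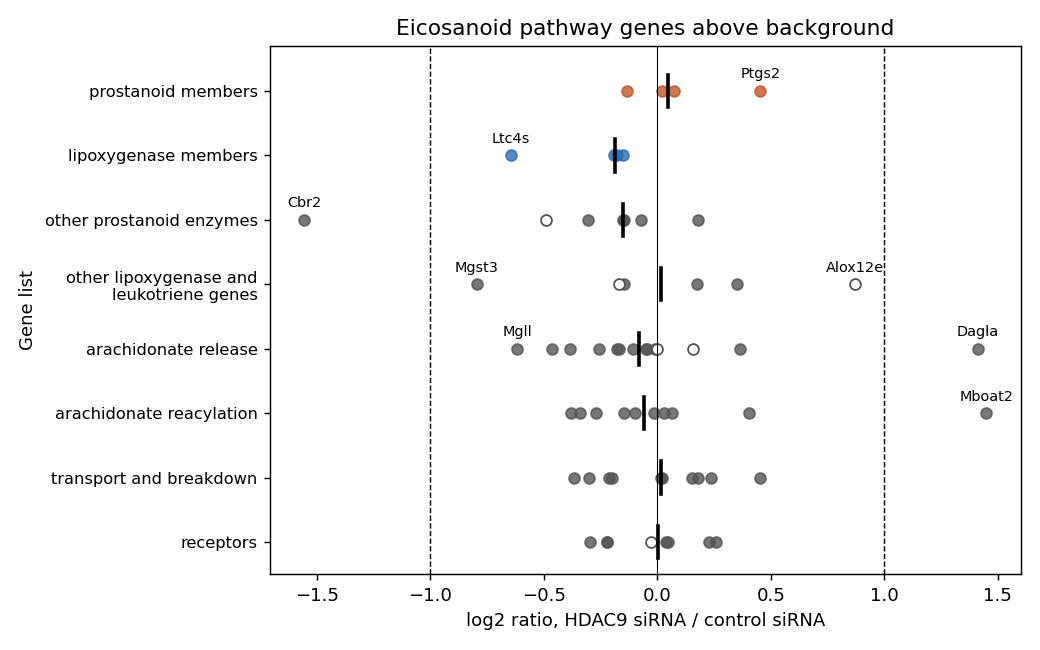
HDAC9 siRNA over control siRNA as a log2 ratio (horizontal axis) for each gene above background in the 2 branches and 6 other pathway lists (vertical axis); filled points were above background on both arrays, open points on 1 array only, so their ratios are bounds, and black bars are medians. Dagla, Mboat2 and Cbr2 are the 3 genes past the dashed 2-fold lines, and none of the 8 members is.

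In the leukotriene and lipoxygenase list, 0 of 6 genes above background passed 2-fold (median 0.01, or -0.17 without probe sets of the _s_at, _x_at and _a_at types). Mgst3, a membrane glutathione transferase of the same protein family as Ltc4s and Alox5ap, was at -0.80 by its brighter probe set (11.03 and 10.23) and at 0.46 by the other. Mgst2, which can also form leukotriene C4, was at 0.18. Ggt5, which processes leukotriene C4 to leukotriene D4, was at 0.35, and Cotl1, whose protein binds 5-lipoxygenase, at -0.15. No lipoxygenase gene other than Alox5 was above background on both arrays: Alox12, Alox12b and Alox8 were below it on both, and Alox12e and Aloxe3 were above it on 1.

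Transport and breakdown genes had 0 of 10 past 2-fold and a median of 0.02. Hpgd, the dehydrogenase that inactivates prostaglandins, was at 0.45, the prostaglandin reductase Ptgr1 at -0.30, Cyp4f16 at -0.37 by its brighter probe set and 0.36 by the other, and Abcc1, an exporter of leukotriene C4, at 0.24. Receptor genes had 0 of 8 past 2-fold and a median of 0.00, or -0.22 with no floor, where genes below background enter. The prostacyclin receptor gene Ptgir was at -0.30 and the prostaglandin E2 receptor gene Ptger2 at -0.22, while Fpr2 was at 0.26 and Cmklr1 at 0.23. Ltb4r1, the high-affinity leukotriene B4 receptor, was below background on both arrays (3.94 and 3.40), and Cysltr1, a receptor for cysteinyl leukotrienes, stood at 9.39 and 9.44; both were named after their values were seen.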

How the data were processed

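The deposited values were log2 signals, 1 column per array, for 45037 probe sets; MAS5 is named in the submitters' processing notes, with no version or settings in the sources used here. The trimmed mean linear signal, leaving out 2% at each end, was 497 on both arrays, so the authors' scaling was kept. Names came from a 2016 annotation of the platform: 34945 had 1 symbol, 932 several and 9160 none, and 34741 matched RefSeq GRCm38.p6. Only those with 1 symbol were used. Each gene took the value of its brightest probe set, by mean linear signal. The scatter of 0.29 comes from the 5671 genes with more than 1 probe set above background: it is the SD of the gap in ratio between the brightest and the next probe set, over the square root of 2.

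Counts used 2-fold. No test was run, since the number of arrays limits the precision. Members, lists and alternatives were chosen with earlier results of these data known. Named genes were the members, Hdac9, list genes past 2-fold, up to 4 others per list with the largest ratio above background on both arrays, and the brightest markers. The 2-fold count was tried on simulated data with known shifts (Python 3.11.15, pandas 2.3.3, statsmodels 0.14.6).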

Additional observations from a re-analysis of the deposited data

How the results depend on the processing

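The alternatives were loess (span 0.3), quantile normalization and centring on the median; a floor at the 99th or the 75th percentile, or a pseudocount of 1 in place of a floor; the median over probe sets; no probe sets of the _s_at, _x_at and _a_at types; and counts at 3-fold or 1.5-fold. Members 2-fold higher numbered 0 under all of them. Members lower numbered 1 at 1.5-fold (Ltc4s) and 1 with no floor (Alox15, which is below background and reads -1.92 there). Of all genes, 2.79% were lower at 1.5-fold, and 1481 of 18193 were 2-fold lower with no floor. The lipoxygenase median was -0.34 by the median over probe sets and otherwise between -0.25 and -0.18; the prostanoid median ranged from -0.02 to 0.08. Under these, 66 member values moved by less than the probe-set scatter or not at all, and 4 by more. A gene far above the floor with 1 probe set keeps its ratio under another floor or the median over probe sets. The 66 thus include values that could not move. Besides Alox15, Lta4h was at -0.50 by the median over probe sets and -0.82 without probe sets of the _s_at, _x_at and _a_at types. Ptgs2 was at 0.14 by the median over probe sets. Ltc4s ranged from -0.78 to -0.64, had no value without those probe sets, and was at the floor on 1 array with the 99th percentile. Cbr2 and Dagla were past 2-fold under each alternative, as was Mboat2 where it had a value. The cause of these shifts was not tested. No paired analysis was possible because each group had 1 array, and no array could be left out.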
